A study of Mus musculus with 9 samples.

Results

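The 42 genes described here encode the machinery of regulated exocytosis, by which endocrine cells and neurons release stored cargo. They were chosen by name, out of 55450 annotated genes, as members of the SNARE, synaptotagmin, priming, clamping, Rab effector, disassembly and granule membrane families. The choice was made with earlier results of these data known. RNA was sequenced from 9 libraries. The embryo group had 7 libraries from Rathke's pouch of *Sox2Egfp/+* embryos at e13.5, a stage at which this epithelium still forms the pituitary. The adult group had 2 libraries from pituitary glands at postnatal week 8, with the posterior lobe taken away, so that anterior and intermediate lobes remained. The strain label of both groups was 129Sv/c57BL6J, and no allele was given for the adults. The comparison asks which parts of the secretory machinery differed in transcript level between the forming and the mature gland. It also asks which of the chosen paralogues led each family. Age and tissue make-up change together here and cannot be told apart.

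In regulated exocytosis, hormone is stored in dense-core granules that fuse with the plasma membrane when calcium rises. Fusion is driven by SNARE proteins of the vesicle and the target membrane, which zip together. Some synaptotagmins sense calcium, Munc13 and CAPS proteins prime granules, and complexins clamp the assembled SNAREs. Rab effectors tether granules, and NSF with its adaptors takes spent complexes apart.

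Read pairs counted on genes numbered 16738863 to 28537311 per embryo library. The adult libraries were deeper, with 36421545 and 31191117. Levels are given as TMM-normalised CPM, in which a floor of 3 counts came to at most 0.22 in an embryo and 0.0843 in an adult; this floor reflects counting error alone. Markers followed the labels. Growth hormone mRNA (*Gh*) was at 53470 and 63848 CPM in the adults and at most 1.91 CPM in an embryo, and *Pax7*, a marker of intermediate lobe melanotropes, was at 86.7 and 95.1 CPM in the adults and at most 0.254 CPM in an embryo. The pouch factor *Hesx1* was between 10.98 and 40.4 CPM in the embryos, and at 0.339 and 0.562 CPM in the adults. Embryos 1 and 4 stood apart. In these libraries 59.7% and 62.8% of read pairs were counted on genes, against 73.9% or more in each other library, and 6 erythroid genes summed to 169175 and 212136 CPM, against 6063 to 18867 CPM in the other embryos.

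Transcripts of the exocytosis machinery were more abundant in the adult. Of the 42 members, 41 passed the filter on low counts, and of these 23 were called higher in the adult (adjusted p below 0.05 and a fold change above 4), where 14.6% of all 19371 genes tested were, and 0 were called higher in the embryo, where 11.3% of all genes were. With edgeR, 2 members were higher in the embryo at an unadjusted p below 0.05, where 5308 of all 19371 genes were. DESeq2 also called 0 members higher in the embryo, where it called 2354 of all genes. The median log2 fold change, embryo over adult, was -2.27 over these members and -0.04 over all genes tested. Because earlier results were known when the members were chosen, the values over all genes are a setting and not a test. Both adults lay above all embryos for 30 members (32.9% of all genes), and all embryos lay above both adults for 5 members (26.2% of all genes). In these bulk samples, fewer cells of a type and less RNA per cell cannot be told apart. Without embryos 1 and 4, all 42 members were tested, and 24 were called higher in the adult (16.2% of all genes), which are the same 23 and *Sytl5* (-4.10, adjusted p = 0.00546), and 0 in the embryo (11.5% of all genes).

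Transcript length and GC content, corrected for together, bear on these counts. The correction changed both at once, so their parts in the move were not separated. Over all genes tested, log2 fold change fell with the length of the longest transcript (Spearman's rho -0.388 across genes, which are not independent), and the members were long, with a median of 4218 bases against 2969 over all genes tested. Once length and GC content were corrected for, rho was 0.0629. Then 18 members were called higher in the adult (12.3% of all genes) and 1 in the embryo (8.63% of all genes), with a median of -1.63 against 0.04 over all genes. All 18 were among the 23. The 5 that were no longer called were *Vamp1*, *Stxbp5*, *Cadps2*, *Cplx2* and *Rims1*, and the member newly called was *Syt2*.

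**Figure D1:**
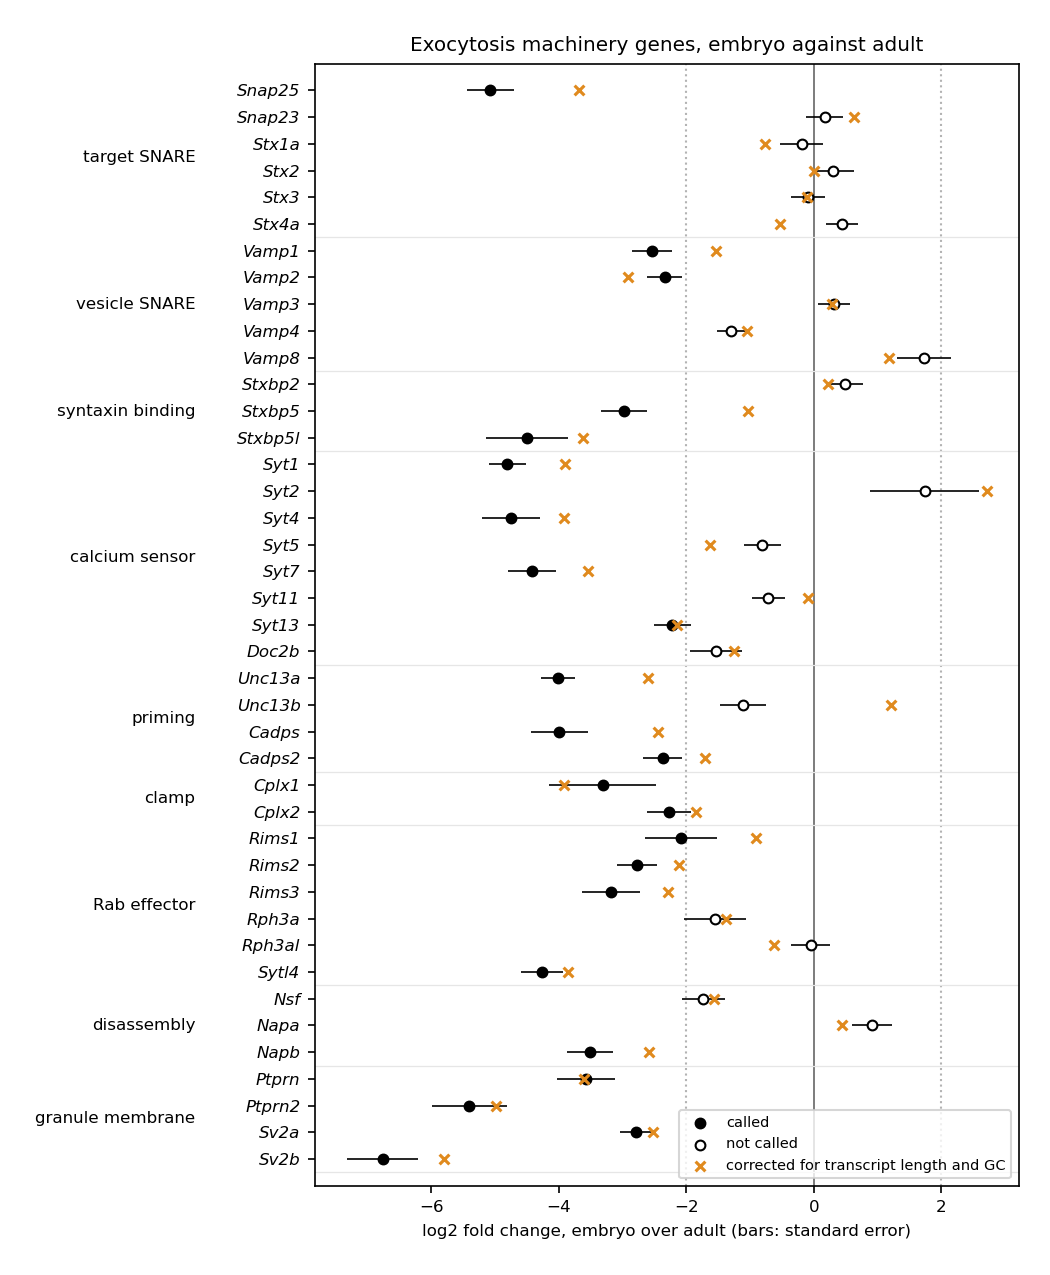
Log2 fold change, embryo over adult, of the 41 members tested, grouped by role. Circles show the uncorrected value with its standard error (filled where called), crosses the value with length and GC corrected, and dotted lines mark a fold change of 4. The 23 called members all lie to the left, from -6.76 for *Sv2b* to -2.08 for *Rims1*.

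Among the target membrane SNAREs, 1 of 6 members, *Snap25*, was called higher in the adult (14.6% of all genes), and 0 in the embryo (11.3% of all genes). *Snap25* (chromosome 2, 136713453 to 136782428 in GRCm38) encodes the SNARE of neurons and endocrine cells that is cleaved by botulinum toxins. Its level was 2.54, 6.09 and 9.82 CPM as the lowest, median and highest of the embryos, and 195 and 212 CPM in the adults. Every embryo was far below both adults, by 33.7-fold in the means (log2 fold change -5.07, SE 0.37, adjusted p = 3.6e-07), and with the correction the log2 fold change was -3.68. Its paralogue *Snap23*, which is expressed in most tissues, ranged from 19.8 to 40.1 CPM in the embryos and was at 27.9 and 28.1 CPM in the adults, so the groups overlapped (log2 fold change 0.17, adjusted p = 0.637). The 4 syntaxins had log2 fold changes from -0.19 to 0.44, for *Stx1a*, *Stx3*, *Stx2* and *Stx4a* in that order, and none passed the test. With the correction *Stx1a* was at -0.77 (adjusted p = 0.0221) and *Snap23* at 0.63 (adjusted p = 0.0352), both under the fold threshold. *Stx4a*, which had the highest adult level per kb of exon in its family, was at 33.4, 44.5 and 51.0 CPM (lowest, median, highest) in the embryos and 29.8 and 34.7 CPM in the adults. The groups overlapped in 1 pair of libraries, adult 2 and the lowest embryo, and the sign of the *Stx4a* log2 fold change turned from 0.44 to -0.53 with the correction.

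The vesicle SNAREs split. *Vamp2*, the synaptobrevin of most regulated secretory cells (chromosome 11, 69088490 to 69092384), was at 29.5, 52.4 and 69.6 CPM in the embryos (lowest, median, highest) and at 256 and 247 CPM in the adults. No embryo reached an adult, and the means differed 5.08-fold (log2 fold change -2.34, SE 0.27, adjusted p = 1.4e-05). *Vamp1*, its close paralogue, was also called (log2 fold change -2.54), and fell under the fold threshold with the correction (-1.53, adjusted p = 1.7e-04). *Vamp8*, an endosomal and exocrine granule SNARE, ran the other way. It was at 114, 185 and 351 CPM in the embryos and 61.0 and 68.4 CPM in the adults, and passed the test but not the fold threshold (log2 fold change 1.73, SE 0.42, adjusted p = 0.00373). All embryos lay above both adults for *Vamp8*, and the 2 highest were embryos 4 and 1, those with high erythroid transcripts; without them the log2 fold change was 1.42. With the correction it was 1.18 (adjusted p = 0.0456), with the correction and without those embryos it was 0.78 (adjusted p = 0.0246), and without adult 1 it was 1.63 (adjusted p = 0.0507). *Vamp3*, the ubiquitous cellubrevin, had a log2 fold change of 0.32 (adjusted p = 0.293), and *Vamp4*, a trans-Golgi SNARE, one of -1.29 (adjusted p = 3.3e-04), which is under the fold threshold.

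The syntaxin-binding members were *Stxbp2*, *Stxbp5* and *Stxbp5l*. *Stxbp2*, a syntaxin chaperone of blood and epithelial cells, was not called (log2 fold change 0.49, adjusted p = 0.17). The tomosyns *Stxbp5* and *Stxbp5l*, which hold syntaxin away from vesicle SNAREs, were both called higher in the adult. *Stxbp5* was at 2.37, 5.35 and 7.76 CPM in the embryos (lowest, median, highest) and 41.0 and 40.6 CPM in the adults (log2 fold change -2.97, SE 0.36, adjusted p = 2.0e-05). The groups were apart, yet this was the called member whose log2 fold change moved most with the correction, to -1.03. *Stxbp5l* was near the floor in the embryos, from 0 to 1.13 CPM, and at 11.8 and 13.1 CPM in the adults (log2 fold change -4.50, and -3.62 with the correction).

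Of the 8 members of the synaptotagmin and Doc2 families, 4 were called higher in the adult (14.6% of all genes): *Syt1*, *Syt4*, *Syt7* and *Syt13*. *Syt1*, the fast calcium sensor of synaptic vesicles and granules (chromosome 10, 108497650 to 109010982), was at 6.05, 7.97 and 12.9 CPM in the embryos (lowest, median, highest) and at 244 and 247 CPM in the adults. The adults were close to each other and exceeded the embryos 27.9-fold in the means (log2 fold change -4.81, SE 0.29, adjusted p = 6.6e-08; -3.90 with the correction). *Syt4*, a synaptotagmin of dense-core granules (chromosome 18, 31437808 to 31447406), was at 3.57, 12.1 and 28.9 CPM in the embryos and at 299 and 453 CPM in the adults (log2 fold change -4.75, SE 0.46, adjusted p = 2.9e-06; -3.92 with the correction). *Syt4* varied more than *Syt1* within each group: embryo 7 was the highest and embryo 3 the lowest, 8.09-fold apart, and the adults differed as well, but the groups did not overlap. The high-affinity sensor *Syt7* had a log2 fold change of -4.42 (adjusted p = 1.1e-06; -3.54 with the correction), and *Syt13* one of -2.22 (adjusted p = 3.4e-05). *Syt5*, *Syt11* and *Doc2b* were lower in the embryo at an adjusted p below 0.05 and under the fold threshold, with log2 fold changes of -0.81, -0.71 and -1.53. Without adult 2 their adjusted p was 0.179, 0.170 and 0.0946. With the correction *Syt11* was at -0.09 (adjusted p = 0.763) and *Syt5* at -1.63. *Syt2* was low throughout, from 0.396 to 0.98 CPM in the embryos and at 0.146 and 0.225 CPM in the adults. Its log2 fold change of 1.74 did not pass (adjusted p = 0.0959), and with the correction it was called higher in the embryo (2.71, adjusted p = 0.0143), while unstranded counts gave 0.86 (adjusted p = 0.373).

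**Figure D2:**
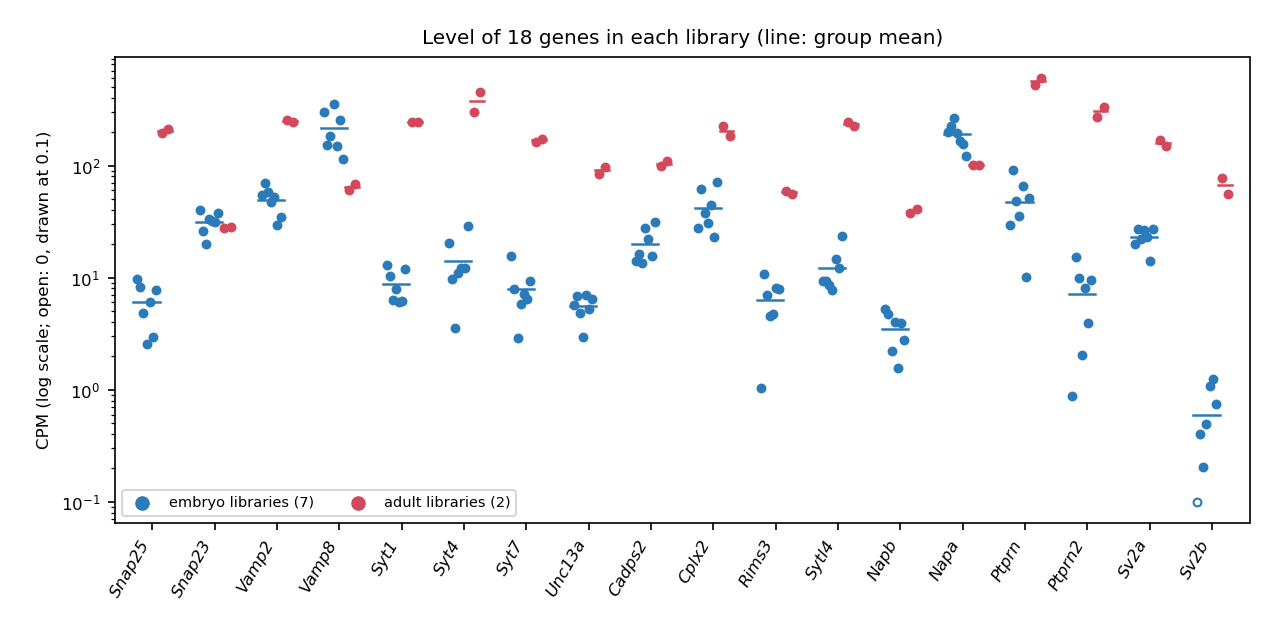
CPM (log scale) of 18 members in each of the 7 embryo and 2 adult libraries, with a line at each group mean; an open circle marks a count of 0. Both adults lie above all embryos for *Snap25*, *Syt1* and *Sv2b*, and below all embryos for *Vamp8* and *Napa*.

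Priming and clamping genes were called higher in the adult in 5 of 6 cases (14.6% of all genes). *Unc13a*, the Munc13 of most synapses, was at 2.96, 5.71 and 7.00 CPM in the embryos (lowest, median, highest) and at 83.3 and 97.6 CPM in the adults (log2 fold change -4.01, SE 0.27, adjusted p = 1.9e-07). Its embryo libraries were close together and 16.2-fold below the adults in the means; with the correction the log2 fold change was -2.60. The paralogue *Unc13b* was not called, and its log2 fold change of -1.11 (adjusted p = 0.0195, and 0.130 without adult 2) turned to 1.21 with the correction (adjusted p = 0.0311). *Cadps2*, which acts in granule priming and loading, was at 13.4, 16.2 and 31.6 CPM in the embryos and at 98.3 and 109 CPM in the adults (log2 fold change -2.37, SE 0.30, adjusted p = 3.2e-05). Its groups were apart, and it fell to -1.70 with the correction, under the fold threshold. Its paralogue *Cadps* had a log2 fold change of -3.99 (adjusted p = 1.1e-05), and of -2.45 with the correction. Of the complexins, *Cplx2* was at 23.1, 37.7 and 70.8 CPM in the embryos and at 224 and 183 CPM in the adults (log2 fold change -2.27, SE 0.34, adjusted p = 1.2e-04). Embryos 7 and 2 were the highest for *Cplx2* and still below both adults; with the correction the value was -1.84. *Cplx1* was near the floor in the embryos, with at most 0.608 CPM, and at 2.23 and 3.09 CPM in the adults. Its log2 fold change of -3.31 (adjusted p = 0.00434) lost its call without adult 2 (-3.07, adjusted p = 0.0552) and was -3.92 with the correction.

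The Rab effector families connect granules with the plasma membrane. Members were placed here by family, whether or not each protein binds a Rab. *Rims3*, a short RIM protein, was at 1.03, 7.03 and 10.8 CPM in the embryos (lowest, median, highest) and at 59.8 and 55.6 CPM in the adults (log2 fold change -3.18, SE 0.46, adjusted p = 9.4e-05; -2.29 with the correction). Embryo 1 was the lowest, 10.5-fold below embryo 2, and no embryo reached an adult. *Rims2* (log2 fold change -2.77, and -2.11 with the correction) and *Rims1* (-2.08) were called too, but *Rims1* lost its call without embryo 3 (-1.93), embryo 4 (-1.88), embryo 6 (-1.98) or adult 2 (-1.92, adjusted p = 0.0808), and with the correction (-0.90, adjusted p = 0.221). *Sytl4*, or granuphilin, which docks insulin and pituitary granules, was at 7.76, 9.38 and 23.5 CPM in the embryos and at 245 and 226 CPM in the adults (log2 fold change -4.26, SE 0.33, adjusted p = 5.0e-07). Embryo 7 was the highest embryo for *Sytl4*, and the groups did not overlap. *Sytl5* was the member that did not pass the filter, with 3 counts in embryo 7, 0 in each other embryo, and 0.509 and 0.394 CPM in the adults. *Rph3al*, or Noc2, was at 41.0, 61.9 and 91.9 CPM in the embryos and 63.9 and 73.7 CPM in the adults (log2 fold change -0.05, SE 0.30, adjusted p = 0.903). Both adults lay within the range of the embryos for *Rph3al*, and with the correction it was at -0.62 (adjusted p = 0.0655). Its relative *Rph3a*, rabphilin, was lower in the embryo at an adjusted p of 0.017 and under the fold threshold (log2 fold change -1.55), and at 0.116 without adult 1 and 0.0693 without adult 2.

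Among the disassembly genes, the ATPase *Nsf* had a log2 fold change of -1.73 (adjusted p = 8.9e-04), under the fold threshold. Its general adaptor *Napa* was at 121, 196 and 266 CPM in the embryos (lowest, median, highest) and at 101.4 and 100.9 CPM in the adults (log2 fold change 0.91, SE 0.31, adjusted p = 0.0235). All embryos exceeded both adults for *Napa*, by less than the fold threshold, and with the correction the value was 0.45 (adjusted p = 0.107). Without adult 1 or adult 2 its adjusted p was 0.143 or 0.147. The neural adaptor *Napb* was called higher in the adult (log2 fold change -3.51, adjusted p = 5.5e-06; -2.59 with the correction).

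All 4 granule and vesicle membrane genes were called higher in the adult (14.6% of all genes). *Ptprn*, which encodes a transmembrane phosphatase-like protein of dense-core granules (chromosome 1, 75247027 to 75264502), was at 10.1, 48.1 and 92.1 CPM in the embryos (lowest, median, highest) and at 525 and 606 CPM in the adults (log2 fold change -3.57, SE 0.46, adjusted p = 3.5e-05). Embryo 2 was the highest and embryo 6 the lowest for *Ptprn*, 9.12-fold apart, and all lay below both adults. Its paralogue *Ptprn2*, or phogrin (chromosome 12, 116485720 to 117276849), was at 0.879, 8.08 and 15.4 CPM in the embryos and at 273 and 337 CPM in the adults (log2 fold change -5.40, SE 0.59, adjusted p = 8.8e-06). Embryos 1 and 4 were the lowest for *Ptprn2*, and without them the log2 fold change was -4.99. *Sv2a*, a vesicle glycoprotein and the target of levetiracetam, was at 14.01, 23.1 and 27.3 CPM in the embryos and at 168 and 149 CPM in the adults (log2 fold change -2.79, SE 0.25, adjusted p = 1.5e-06). The embryos were close together for *Sv2a*, and the adults 6.93-fold higher in the means. *Sv2b*, its paralogue (chromosome 7, 75114894 to 75309262), was at 0, 0.494 and 1.24 CPM in the embryos and at 77.6 and 56.1 CPM in the adults (log2 fold change -6.76, SE 0.56, adjusted p = 9.8e-07). This was the largest log2 fold change among the members, also with the correction (-5.80), and the embryo values rest on 0 to 30 counts a library.

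Choice of paralogue was measured as the share of a fixed member in the summed CPM per kb of exon of its family, in each library. Each family here holds only the members described, and relatives outside them were left out of the sum. Of 14 families, 9 had shares that did not overlap between the groups, each with the smallest p that the exact permutation test over 36 regroupings can give (two-sided, p = 0.0278; 0.0432 after Benjamini-Hochberg adjustment over the 14 shares). Such separation was common, since the levels of 32.9% and 26.2% of all genes were apart in one direction or the other. Among these members, the leading paralogue by mean share differed between embryo and adult in 4 families. They were those of the SNAP-25 proteins, VAMPs, Munc13s and synaptotagmins. The SNAP-25 relative *Snap47*, not a member, was at 62.85 CPM per kb in the embryos and 46.99 in the adults. It exceeded *Snap23* (7.34 and 6.52) and *Snap25* (0.891 and 29.98) in both groups. *Snap25* made up 4.63%, 11.5% and 16.6% of the *Snap25* and *Snap23* sum in the embryos (lowest, median, highest), against 81.6% and 82.7% in the adults, so *Snap23* led in each embryo and *Snap25* in each adult. *Vamp2* made up 4.55%, 8.29% and 12.4% of its 5-member family in the embryos; the adult values were 44.8% and 42.8%. *Vamp8* led the embryos with a mean share of 57.3% (SD 11.2, n = 7) and had 18.6% in the adults (SD 1.35, n = 2). The summed level of this family hardly differed, with a mean of 157 CPM per kb (SD 35.6) in the embryos and 151 CPM per kb (SD 1.26) in the adults, and the groups overlapped.

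*Unc13a* made up 22.02%, 29.2% and 44.5% of the *Unc13a* and *Unc13b* sum in the embryos (lowest, median, highest), and 76.3% and 76.8% in the adults. *Unc13b* thus led in each embryo and *Unc13a* in both adults. Among 7 synaptotagmins, *Syt1* made up 2.54% (SD 1.06) of the sum in the embryos and 12.8% (SD 1.68) in the adults. *Syt5* led the embryos with a mean share of 43.0%, followed by *Syt11* with 27.3%, and *Syt4* led the adults with 41.3%, against 8.76% in the embryos. The whole synaptotagmin sum was 42.7 CPM per kb (SD 4.59) in the embryos and 232 CPM per kb (SD 32.6) in the adults.

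In 5 other families the leading paralogue was the same at both stages and had a smaller share in the adult. The mean share of *Stxbp5l* beside *Stxbp5* was 16.8% in the embryos and 37.2% in the adults; with the length and GC correction it was 14.4% and 51.1%, so that *Stxbp5l* then led the adults. That of *Cadps* beside *Cadps2* was 9.60% and 23.8% (11.4% and 16.5% with the correction), and that of *Napb* beside *Napa* was 1.01% and 17.3% (1.21% and 9.28%). In the granule membrane families the mean share of *Ptprn* was 92.6% in the embryos and 79.0% in the adults, and that of *Sv2a* 98.4% and 81.2%, although both genes were called higher in the adult, since *Ptprn2* and *Sv2b* differed by more.

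The remaining 5 shares overlapped between the groups: *Stx1a* (exact permutation p = 0.139), *Cplx2* (p = 0.194), *Rims2* (p = 0.667), *Rph3a* (p = 0.0833) and *Sytl4* (p = 0.25). *Cplx2* and *Sytl4* each made up more than 96% of the members of their family in every library. Relatives outside the members were not low throughout. *Sytl1* was at 2.924 CPM per kb in the embryos and 23.52 in the adults, against 2.385 and 45.93 for *Sytl4*. *Cplx3* was at 3.471 and 1.108, against 8.571 and 41.35 for *Cplx2*. *Stx4a* and *Rph3al* led their families at both stages by mean share, although *Stx3* led the syntaxins without division by length. The RIM family varied most among embryos, with a *Rims2* share from 22.5% to 65.3%, the highest in embryo 1. *Rims3* led at both stages by mean share, but without embryo 2 *Rims2* led the embryos (45.4%). The *Rims2* difference, adult minus embryo, was -5.61 points, and -1.76 without embryo 1, -8.88 without embryo 2 and -3.19 without embryo 4. That of *Cplx2* was -1.55 points, and -0.81 without adult 2. The RIM total nonetheless differed, at 1.63 CPM per kb (SD 0.325) in the embryos and 12.5 CPM per kb (SD 0.438) in the adults.

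**Figure D3:**
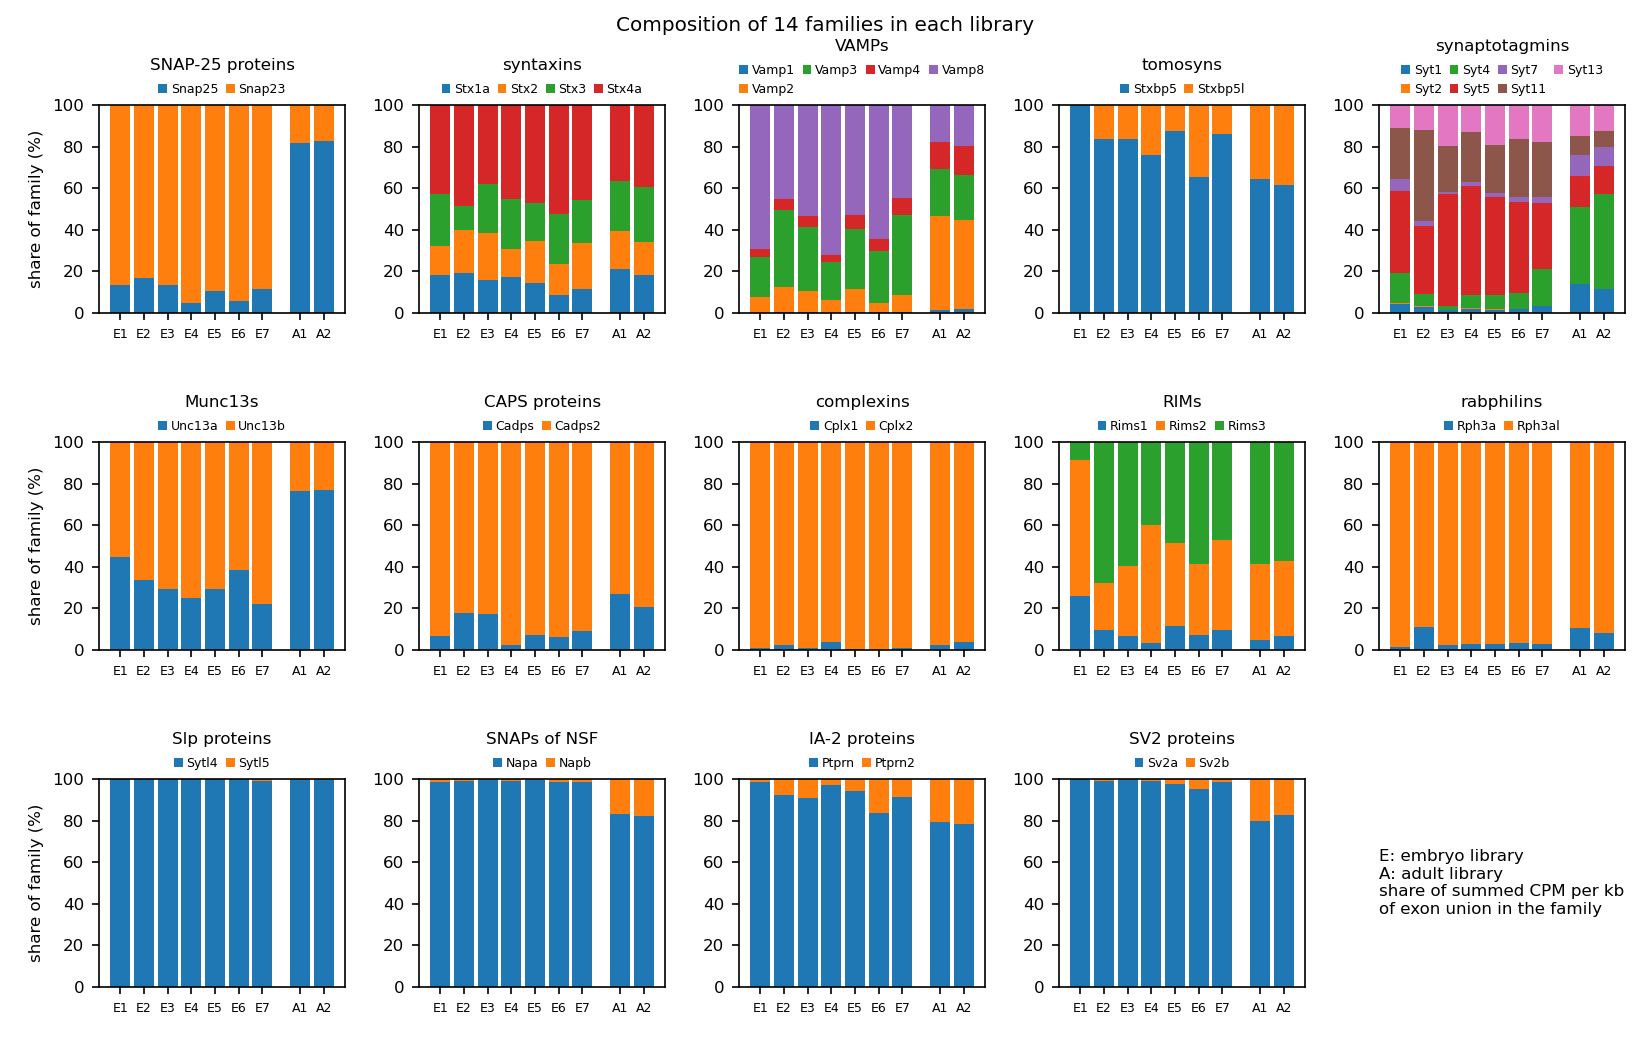
Share (%) of each paralogue in the summed CPM per kb of the listed members of its family, for 14 families. Values are for each of 7 embryo (E) and 2 adult (A) libraries. *Snap25*, *Vamp2* and *Unc13a* take a larger share in both adults than in any embryo, while the shares of *Stx1a*, *Cplx2* and *Sytl4* overlap between the stages.

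Related gene lists give the setting of these counts. Of 30 other members of the same families that were tested, 9 were called higher in the adult (14.6% of all genes) and 0 in the embryo (11.3% of all genes). Their median log2 fold change was -1.19, and -0.46 with the length and GC correction. At an unadjusted edgeR p below 0.05, 3 of them were higher in the embryo, where 5308 of all 19371 genes were, and DESeq2 called 0 higher in the embryo. Their values ran from -4.91 for *Sv2c* to 3.28 for *Cplx4*, which was not called but was without embryos 1 and 4 (3.39, adjusted p = 0.0261), on at most 14 counts a library. Of 9 active zone scaffold genes, 4 were called higher in the adult (14.6% of all genes), with *Ppfia2* lowest at -6.25 and *Ppfia4* highest at 0.35. Rab3 and Rab27 are granule GTPases bound by members of the Rab effector families. Of their 6 genes, 3 were called higher in the adult (14.6% of all genes), and values ran from -4.19 for *Rab3c* to -0.51 for *Rab3b*.

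Genes of general membrane traffic were counted in the same way. Of 22 constitutive SNAREs and partners of the endoplasmic reticulum, Golgi and endosomes, 0 were called higher in the adult (14.6% of all genes). In the embryo 1 was called higher (11.3% of all genes), *Use1*, at 2.00. *Use1* was not called with the correction (0.65, adjusted p = 0.109), where *Stx8* was (2.19), nor without embryos 1 and 4 (1.60), which had its highest levels, 480 and 524 CPM. With DESeq2 the counts were 1 and 0. At an unadjusted edgeR p below 0.05 they were 6 and 6, where 5886 and 5308 of all 19371 genes passed. The median was -0.14, and the lowest value was -1.97 for *Scfd1*. Of 9 exocyst subunits, which tether vesicles at the plasma membrane, 0 were called in either direction by edgeR or DESeq2. At an unadjusted edgeR p below 0.05, 6 were lower and 1 higher in the embryo, where 5886 and 5308 of all 19371 genes were. Values ran from -1.77 for *Exoc6* to 0.67 for *Exoc7*. The exocyst median was -0.74. After the correction the medians of the constitutive SNAREs and the exocyst were 0.02 and 0.16, and that of the exocytosis machinery -1.63. The median of the Rab3 and Rab27 genes was -2.40, and -1.89 with the correction. No test of the difference between lists was made.

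**Figure D4:**
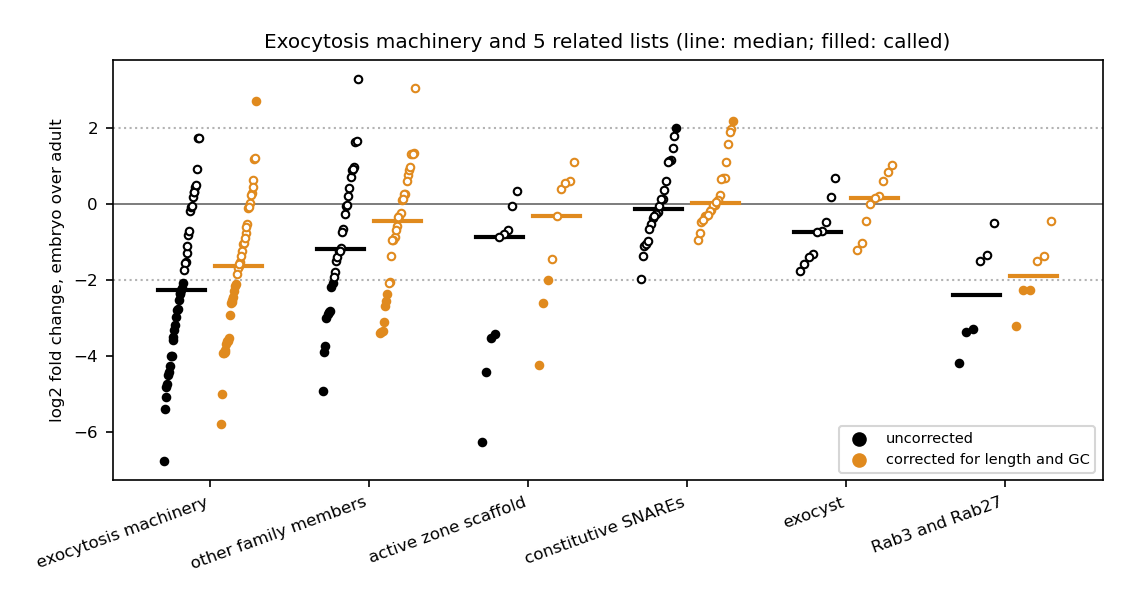
Log2 fold change, embryo over adult, of the tested genes of the exocytosis machinery and of 5 related lists, before (black) and after (orange) the length and GC correction; lines are medians and filled points are called. The medians of the exocytosis machinery are -2.27 and -1.63, and those of the constitutive SNAREs -0.14 and 0.02.

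Lists of marker genes named after cell types, the gland's own hormone cells among them, were summed in each library. Some sums differed between the groups, and a sum does not give a number of cells. The sums of the endothelial genes and of the macrophage and mast cell genes overlapped. Of the 11 hormone cell genes, 10 were called higher in the adult (14.6% of all genes). The 11 summed to between 889 and 1940 CPM in the embryos, with *Cga* the most abundant in each, and to 152901 and 160509 CPM in the adults. In adult 1 *Prl* was the most abundant (62124 CPM, against 53470 for *Gh*), and in adult 2 it was *Gh*. The 11 neuron genes summed to 250, 463, 432, 305, 293, 456 and 329 CPM in embryos 1 to 7, with *Nefl* the most abundant in 6 and *Tubb3* in embryo 2, and to 585 and 566 CPM in the adults, with *Map2* the most abundant in both. Among the embryos, 2 and 6 had the highest neuron sums, below those of both adults. *Tubb3* was at 188 and 100 CPM in embryos 2 and 6, against 74.8 and 37.3 CPM in the adults. *Map2* ran the other way, at 57.3 and 52.1 CPM there and at 268 and 311 CPM in the adults. Of the 11 neuron genes, 4 were called higher in the adult (14.6% of all genes) and 0 in the embryo (11.3% of all genes). The 11 synaptic vesicle genes summed to between 52.6 and 113 CPM in the embryos and to 704 and 604 CPM in the adults, with *Syp* the most abundant in each library. Of these 11, 7 were called higher in the adult (14.6% of all genes).

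In the lists that follow, the gene that led had the highest mean CPM of its group. The 7 genes of the posterior lobe and ventral hypothalamus summed to between 90.6 and 249.4 CPM in the embryos, highest in embryo 2 and led by *Rax*, and to 45.4 and 57.9 CPM in the adults, led by *Col25a1*. *Avp* was at 0 in every embryo and at 1.75 and 3.43 CPM in the adults. The 6 mesenchyme genes summed to between 621 and 2224 CPM in the embryos, led by *Col3a1*, and to 580 and 361 CPM in the adults, led by *Col1a2*. The 5 endothelial genes summed to between 116 and 432 CPM in the embryos, led by *Emcn*, and to 117 and 73.5 CPM in the adults, led by *Kdr*. The 7 macrophage and mast cell genes summed to between 95.97 and 245 CPM in the embryos, led by *C1qb* and with *Mcpt4* at 0, and to 83.5 and 132 CPM in the adults, led by *Csf1r*. The 6 erythroid genes were led by *Hbb-y* in the embryos, and summed to 762 and 1975 CPM in the adults, led by *Hbb-bs*. The 8 pouch and progenitor genes summed to between 662 and 1612 CPM in the embryos, led by *Pitx1* and lowest in embryo 2, and to 632 and 549 CPM in the adults, led by *Six6*. The part of these cell types in the levels of the exocytosis genes was not tested.

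**Figure D5:**
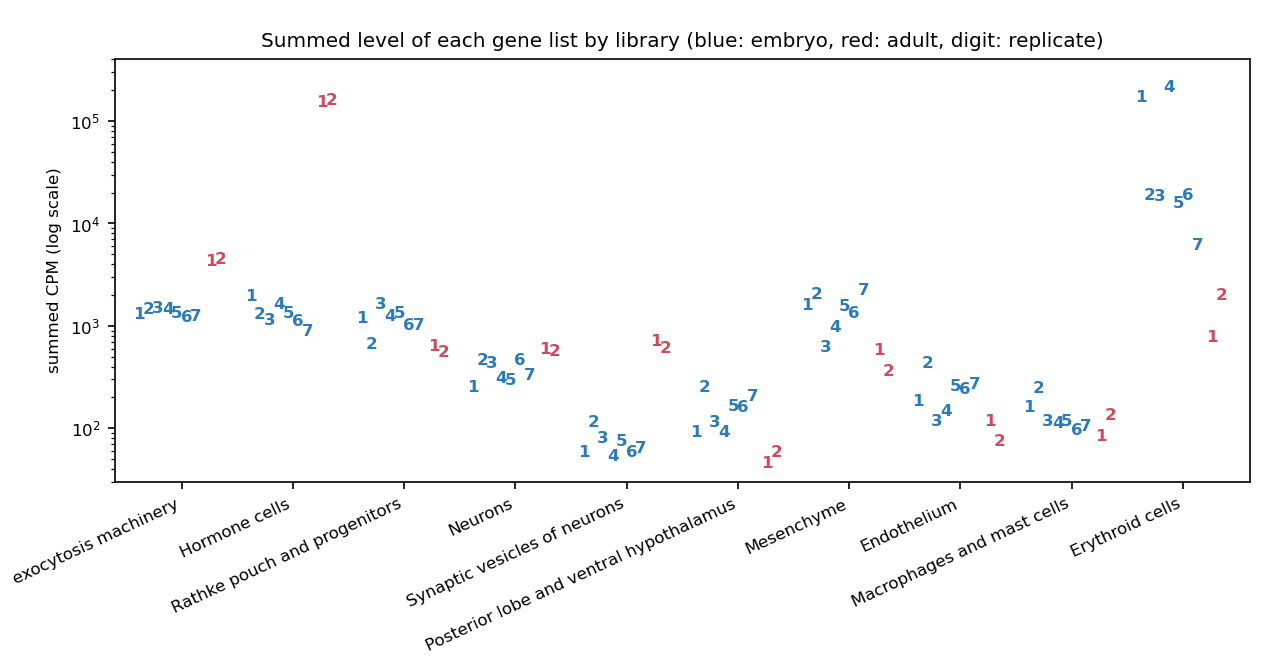
Summed CPM (log scale) of the exocytosis machinery and of 9 marker lists in each library, drawn as the replicate number in blue (embryo) or red (adult). The exocytosis machinery sums to 1213 to 1464 CPM in the embryos and to 4215 and 4483 CPM in the adults.

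Summed over the 42 members, the embryos were thus nearly level with each other, although single members with counts in every embryo varied up to 17.5-fold among them (*Ptprn2*). *Vamp8*, *Napa* or *Vamp3* was the most abundant member in each embryo, and none of them was called.

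The promoters of the members were searched for short motifs, in RefSeq windows (GRCm38.p6) of 250 bases before to 50 after a gene's start, on both strands. Of the 42 members, 33 were matched, with 43 windows, and 17 of the 23 called members, with 22 windows. The letters TTCAGCACC, the left part of the RE1 element that the repressor REST binds, were in 0.371% of all 32851 windows and in 2 member windows, those of *Unc13a* and *Ptprn2*. GGACAGC, the right part, was in 6.56% of all windows and in 5 member windows, of *Unc13a*, *Ptprn2*, *Rph3a* and *Rph3al*. Both parts on the same strand, left before right and at most 10 bases apart, were in 12 of all windows (0.0365%), again including *Unc13a* and *Ptprn2*. These stretches are shown because both genes were called higher in the adult; capitals mark the left and right parts.
*Unc13a*, chr8:71671724-71671753, plus strand: cgcTTCAGCACCgggggcgcGGACAGCgcc
*Ptprn2*, chr12:116485723-116485744, minus strand: agcTTCAGCACCGGACAGCgcc
The parts are 8 bases apart in *Unc13a* and 0 in *Ptprn2*, and the stretches lie 5 to 34 and 4 to 25 bases into the transcript, each on the strand opposite to the gene. Since any distance up to 10 bases was accepted, the spacing of the RE1 element itself was not required, and these matches need not be whole elements. A match is a description of the letters and not a site of binding. *Rest* itself, looked up after these matches were seen, was at 8.49, 13.4 and 24.4 CPM in the embryos (lowest, median, highest) and at 6.72 and 6.75 CPM in the adults. All embryos exceeded both adults for *Rest* (log2 fold change 1.22, SE 0.40, adjusted p = 0.0208), under the fold threshold, and with the correction for length and GC it was called higher in the embryo (2.49, adjusted p = 1.6e-04). The part of *Rest* in the levels of *Unc13a*, *Ptprn2* or any other member was not tested.

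Of the other motifs searched, TGACGTCA, a cyclic AMP response element, was in 1.79% of all windows and in 1 member window, of *Napa*. TATAAA was in 13.6% of all windows and 4 member windows, of *Stx2*, *Stx3* and *Sv2b*. TAATCC, a motif of Pitx factors, was in 7.06% of all windows and 4 member windows, of *Rims3*, *Stx3* and *Sv2b*, and GGGCGG, a GC box, was in 35.7% of all windows and in 24 member windows, 13 of them of called members.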

How the data were processed

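The authors sequenced directional poly(A) libraries made from 50 ng of RNA as 75 bp read pairs; the submitters' processing notes name Trimmomatic 0.39, STAR 2.7.5b and the mm10 genome. The deposited files hold raw counts of read pairs per gene, unstranded and for each strand; column 4, which is strand-specific, was taken. Symbols, positions and lengths came from Ensembl release 96 (GENCODE mouse release 21). The members and lists were chosen with earlier results of these data known. Counts were TMM-normalised and fitted over the 19371 genes whose mean count reached 5 by the quasi-likelihood test of edgeR 4.0.16 (R 4.3.3) with stage as the only term; p-values were Benjamini-Hochberg adjusted over all of them. The steps were tested on simulated data. All members are named; full values are given for the member with the highest adult level per length in each family and the 5 largest called changes. Paralogue shares used an exact permutation test. Alternatives changed the tool (DESeq2 1.42.0), normalisation, filter, strand, length, threshold and libraries. The paper states that the embryos were of both sexes and that the adults were a male and a female. Sex is not given per library and was not used.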

Additional observations from a re-analysis of the deposited data

Results flagged for a closer look

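In 7 of 56 groups of embryo values (42 member levels and 14 shares), 1 embryo lay far from the other 6; chance gives about 1 in 20. The adult group of 2 was not tested in this way. Embryo 2 was high for *Syt11* (93.8 CPM, next 58.6) and *Rph3a* (6.29 CPM, next 3.01), which also gave *Rph3a* its highest share beside *Rph3al* (11.2%, next 3.34%), and it was low for *Stx3* (29.5 CPM, next 46.6). Embryo 2 also had the highest sums of the neuron, synaptic vesicle, endothelial, macrophage and mast cell, and posterior lobe and ventral hypothalamus genes among the embryos, and the lowest sum of the pouch genes; their part was not tested. Embryo 7 was high for *Vamp1* (6.77 CPM, next 4.82) and was the only embryo with *Sytl5* counts (0.0963 CPM, 3 counts), which put the *Sytl4* share there at 99.1%, against 100% in the others.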

How the results depend on the processing

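The number of members called was 23 and stayed between 16 (fold change tested against 4, where 9.00% of all genes were called) and 32 (no fold threshold, where 51.4% were) over all alternatives, and between 21 and 23 when each library was left out in turn, with a lone adult assumed to vary like the embryos. The number called higher in the embryo was 0. It was 1 with the length and GC correction (1671 of all 19371 genes). It was also 1 with that correction and without embryos 1 and 4 (1766 of 19508 genes), a setting chosen after seeing the data. With a fold change above 2 it was 1 (4155 of 19371 genes), and with no fold threshold 2 (4650 of 19371 genes). The cause was not tested. No called member changed sign in any alternative, and 17 of the 23 were called in every alternative fit in which they were tested, other thresholds aside. Unstranded counts put *Rims1* at -1.98, under the fold threshold.

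Of 815 log2 fold changes under an alternative, 14 changed sign, all of members not called. With the correction, *Stx4a* was -0.53 (-0.40 also without embryos 1 and 4) and *Unc13b* 1.21 (1.47). Library size alone, which moved the median of all genes to -0.26, put *Snap23* at -0.05. Leaving out each library in turn gave -0.23 to 0.03 for *Stx3* (0.00 without embryo 2) and -0.17 to 0.05 for *Rph3al*, which was 0.03 without embryos 1 and 4 and -0.62 with the correction. The cause was not tested. The number of shares with separate groups, 9, was 9 to 11 under each alternative; of the other shares, *Rims2* turned from -5.61 points (adult minus embryo) to 1.92 without embryos 1 and 4, and with the correction was -0.69. Of 195 share differences under an alternative, 24 moved by more than the spread among embryos. With the correction, *Stxbp5l* went from 20.4 to 36.7 points, *Cadps* from 14.2 to 5.16, *Napb* from 16.3 to 8.07, *Rph3a* from 5.50 to 2.02 and *Cplx2* from -1.55 to -3.90. Without division by length, *Syt1* went from 10.3 to 17.3, *Napb* to 26.2, *Ptprn* from -13.6 to -21.4 and *Sv2a* from -17.2 to -26.7. In that setting *Syt11* led the embryo synaptotagmins in place of *Syt5*, *Stx3* led the syntaxins at both stages, and *Rims2* led its family in the embryos; with the longest transcript as length, *Rims2* led at both stages. The *Sytl4* share could not be computed with the correction, since *Sytl5* was below the filter.

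Replicates 1 and 2 of the 2 groups share a number but are different animals, and their differences did not move together across genes (r = 0.024). A replicate block gave 22 members called, with *Stx1a* at 0.03, *Nsf* called (-2.09) and *Cplx1* (-2.98, adjusted p = 0.128) and *Rims1* (-1.40, adjusted p = 0.275) not called. The block also moved *Stxbp5l* from -4.50 to -6.66, *Sv2b* from -6.76 to -8.13 and *Rims3* from -3.18 to -3.92. *Ptprn2* moved from -5.40 to -6.05 and *Syt13* from -2.22 to -2.83.

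With 2 adults, the adult spread rests on 1 difference for each gene, which is also a difference between a male and a female. Leaving out an adult therefore also leaves out a sex. Members near the floor in the embryos (*Sv2b*, *Stxbp5l*, *Cplx1*, *Syt2*, *Sytl5*) have few counts behind each value.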
